A study of Mus musculus with 2 samples.

Results

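The genes that carry fatty acids into liver cells and bind them inside were followed in 2 single-cell libraries of mouse liver. The members were the 8 genes whose symbols were Cd36, Slc27a2, Slc27a5, Lpl, Fabp1, Fabp2, Fabp4 and Fabp5, of 32285 genes counted in each library, and all 8 were detected in both libraries. The first library held wild-type liver (WT, genotype label CTRL). The other held liver together with tumor of an NgBR knockout (N-LKO), in which Cre driven by the albumin promoter removes the loxP-flanked NgBR gene (Nus1) from hepatocytes. Both groups were on a C57BL6 background and received a fat-rich diet for 16 weeks, named HFD in the sample titles and WD elsewhere. Hepatocytes and nonparenchymal cells were released by collagenase perfusion and mixed at set ratios, and tumor cells were added for N-LKO. Age and the number of mice per library were not given in the labels. With 1 library per group there was no replicate, so genotype, tumor tissue, cell mixing and library cannot be told apart, no test was run, and every interval covers counting error only.

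Long-chain fatty acids reach the liver as free acids bound to albumin or within lipoprotein triglyceride. Lipoprotein lipase frees them from triglyceride at the vessel wall, CD36 helps them across the plasma membrane, and the transport proteins of the Slc27a family couple entry to activation by coenzyme A. Inside the cell the fatty acid-binding proteins (FABPs) keep them in solution: FABP1 is the abundant form of hepatocytes, FABP2 is best known from enterocytes, FABP4 from adipocytes, endothelium and macrophages, and FABP5 from skin and macrophages.

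The WT library held 100171 barcodes with 85522287 unique molecular identifiers (UMIs, one per captured RNA molecule) and the N-LKO library 90147 barcodes with 87575064 UMIs. After filters on depth, mitochondrial share and doublets, 18434 WT and 19851 N-LKO barcodes were kept, of which 122 barcode sequences occurred in both libraries. The barcodes under 500 UMIs, 18526 in WT and 13674 in N-LKO, were summed as background, a measure of RNA free in the suspension; the shallowest deposited barcodes held 326 and 377 UMIs. Levels are counts per 1000000 UMIs (CPM) of a class sum and are not scaled by transcript length, because the reads lie at the 3′ end. The 11 classes with at least 50 cells in each library were named from marker lists. Hepatocyte-like cells numbered 9955 in WT and 4187 in N-LKO, Kupffer-like cells 1657 and 3599, endothelial-like cells 1873 and 2381, and T/NK-like cells 1019 and 1186. Nus1, the targeted gene, was at 72.9 CPM in WT against 34.4 CPM in N-LKO hepatocyte-like cells, and at 57.8 and 37.4 CPM in the background. In the floxed allele the loxP sites flank exon 1 of Nus1, at the 5′ end, so reads from the 3′ end lie outside the deleted part. Whether the Nus1 values reflect the deletion was not tested.

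The hepatocyte-like class came from different clusters in the libraries. Clusters 6 and 7 held 97.6% of the N-LKO hepatocyte-like cells and 0.994% of the WT ones, and WT cells lay mostly in clusters 1, 10 and 19. The 9 hepatocyte markers summed to 39031 CPM in WT against 24938 CPM in N-LKO hepatocyte-like cells. In cluster 7, with 2092 N-LKO cells, only 4 of these 9 markers were at least 2-fold above the median cluster. The N-LKO values of the class thus include many cells named on fewer markers. The 6 markers of lipid-associated macrophages were all at least 2-fold higher in the N-LKO hepatocyte-like sum, with a median log2 ratio of 2.24. Of all genes compared in this class 22.3% were so, and their median log2 ratio was 0.40. The part of these markers, and of free RNA in them, was not tested.

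Among the 8 genes, Fabp1 carried by far the most UMIs, and it and Fabp2 were lower in N-LKO in all 11 classes and in the background. They were the only members at least 2-fold lower in all 10 classes other than hepatocyte-like, where 6.35% to 23.9% of genes per class were so. In these classes both lay below the background, whose own log2 ratios were -2.60 and -2.22. In hepatocyte-like cells neither was at least 2-fold lower. The part of free RNA in this pattern was not tested. Because the 2 genes shared it, the sequences before both are shown. They are the 250 bases before the RefSeq gene start (GRCm38.p6), 5′ to 3′ on the gene's strand, at chr6:71199629-71199878 for Fabp1 and chr3:122894822-122895071 for Fabp2. Capitals mark the core promoter element TATAAA and the nuclear receptor core letters AGGTCA, searched on both strands, AGGTCA reading as TGACCT where it lies on the opposite strand.
Fabp1: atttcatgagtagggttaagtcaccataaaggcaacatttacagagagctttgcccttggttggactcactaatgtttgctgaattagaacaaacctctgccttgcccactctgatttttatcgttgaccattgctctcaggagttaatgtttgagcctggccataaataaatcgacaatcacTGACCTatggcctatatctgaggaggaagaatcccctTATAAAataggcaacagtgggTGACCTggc
Fabp2: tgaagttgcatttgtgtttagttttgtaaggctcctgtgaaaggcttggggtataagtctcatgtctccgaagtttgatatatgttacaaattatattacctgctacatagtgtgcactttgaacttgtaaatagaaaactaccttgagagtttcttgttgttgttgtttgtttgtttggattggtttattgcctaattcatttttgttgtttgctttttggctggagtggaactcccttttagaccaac
Fabp1 held 1 TATAAA at 30 to 25 bases before the start and 2 copies of AGGTCA, both on the opposite strand, whereas Fabp2 held neither. TATAAA was found in 12.4% and AGGTCA in 14.0% of the 32851 promoters of this length. Cd36 and Slc27a2, the other members with a promoter in the RefSeq table, held 1 AGGTCA each and no TATAAA. A match is a run of letters and not a measured binding site.

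Cd36 encodes a scavenger receptor that helps long-chain fatty acids across the plasma membrane (ENSMUSG00000002944, chr5:17781690-17888801 of GRCm38, minus strand, 15 exons in its first listed transcript). It was highest in endothelial-like cells of both libraries, at 601 CPM (95% interval 570 to 633) in WT against 811 CPM (781 to 841) in N-LKO. Kupffer-like cells came next at 488 CPM (461 to 517) and 593 CPM (574 to 613), and neither interval overlapped that of its neighbours in the order. T/NK-like cells were lowest in WT at 35.7 CPM. Hepatocyte-like cells held 104 CPM (99.4 to 109) in WT against 204 CPM (194 to 213) in N-LKO, for a log2 ratio of 0.97 (0.87 to 1.06). The background moved further, from 75.4 CPM to 199 CPM, a log2 ratio of 1.40 (1.26 to 1.54). Under the alternatives the hepatocyte-like ratio ran from 0.33 after subtraction of free RNA to 1.72 with a mitochondrial limit of 10%. That subtraction left no Fabp1 in WT hepatocyte-like cells, so values after it may be overcorrected. Cd36 thus stood above background in WT hepatocyte-like cells, and in N-LKO its interval included the background level. The classes whose lower interval bound was above the background numbered 7 of 11 in WT and 5 of 11 in N-LKO.

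Slc27a2 encodes the very long-chain acyl-CoA synthetase FATP2 (ENSMUSG00000027359, chr2:126552407-126588243, plus strand, 10 exons). Its hepatocyte-like level was 401 CPM (392 to 411) in WT against 403 CPM (390 to 417) in N-LKO, for a log2 ratio of 0.01 with an interval from -0.05 to 0.07. The value near 0 moved with the processing, to -0.39 relative to the median gene of the class and to -0.74 after subtraction of free RNA. The background held 202 CPM and 228 CPM. Hepatocyte-like cells were the only class of the 11 above background in either library, and in both the interval stood clear of every other class. The order of the other WT classes, from neutrophil-like cells at 185 CPM to plasma-like cells at 58.9 CPM, had overlapping neighbours throughout.

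Slc27a5 encodes FATP5, a liver transporter that also joins bile acids to coenzyme A (ENSMUSG00000030382, chr7:12988346-12998192, minus strand, 10 exons). Like that of Slc27a2, its lower interval bound was above the background level in hepatocyte-like cells alone. Over the whole class it stood at 111 CPM (106 to 116) in WT against 71.7 CPM (66.2 to 77.6) in N-LKO, for a log2 ratio of -0.63 (-0.77 to -0.50). The background went from 76.7 CPM to 63.8 CPM, a log2 ratio of -0.26 (-0.45 to -0.08). In N-LKO the background interval (57.6 to 70.4 CPM) overlapped that of the class. Within single clusters the log2 ratio was 0.19 (-0.58 to 0.80) in cluster 1 and 0.20 (-0.44 to 1.01) in cluster 6. It was -0.18 for the class without clusters 7, 10 and 19, which were over 2-fold richer or poorer in the nuclear RNA Malat1 than the median hepatocyte-like cluster. Of all Slc27a5 UMIs in kept cells, hepatocyte-like cells held 84.2% in WT and 52.9% in N-LKO, where they were also fewer. For Slc27a2 these shares were 86.3% and 54.9%.

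Lpl encodes lipoprotein lipase, which splits lipoprotein triglyceride (ENSMUSG00000015568, chr8:68880491-68907448, plus strand, 10 exons). It belonged first to Kupffer-like cells, the resident macrophages of the liver. They held 1083 CPM (1042 to 1125) in WT against 1693 CPM (1660 to 1727) in N-LKO, for a log2 ratio of 0.64 (0.58 to 0.71), and 50.04% and 56.4% of all Lpl UMIs in kept cells. The next WT classes, B-like cells at 127 CPM and monocyte/dendritic-like cells at 123 CPM, overlapped each other. In hepatocyte-like cells Lpl was at 46.7 CPM (43.5 to 50.1) in WT against 172 CPM (164 to 181) in N-LKO, for a log2 ratio of 1.88 (1.76 to 2.01) and the largest of the 8. The background gave 50.9 CPM and 190 CPM, a log2 ratio of 1.90 (1.73 to 2.06), and the hepatocyte-like and background intervals overlapped in both libraries (background 46.2 to 56.1 CPM and 179 to 201 CPM).

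Fabp1 encodes the liver FABP (ENSMUSG00000054422, chr6:71199827-71205023, plus strand, 4 exons). Hepatocyte-like cells held 11128 CPM (11078 to 11179) in WT against 5768 CPM (5718 to 5819) in N-LKO, for a log2 ratio of -0.95 (-0.96 to -0.93). In the background the level went from 19704 CPM to 3247 CPM, a log2 ratio of -2.60 (-2.62 to -2.58). WT hepatocyte-like cells thus lay below their background and N-LKO ones above it. Fabp2, the intestinal form (ENSMUSG00000023057, chr3:122895072-122899506, plus strand, 4 exons), had the same order at a lower level. It was at 227 CPM (220 to 234) in WT against 164 CPM (156 to 173) in N-LKO hepatocyte-like cells, for a log2 ratio of -0.46 (-0.55 to -0.38), with 454 CPM and 97.4 CPM in the background. These 2 ratios turned on which cells entered the sum. Without clusters 7, 10 and 19 the log2 ratio was -0.06 for Fabp1 and 0.46 for Fabp2. With a mitochondrial limit of 10%, which leaves out cells before clustering, it was -2.32 and -2.03. The median mitochondrial share of hepatocyte-like cells was 20.8% in WT and 15.3% in N-LKO, both above that limit.

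Fabp4 encodes the adipocyte FABP (ENSMUSG00000062515, chr3:10204088-10208576, minus strand, 4 exons) and stood first in endothelial-like cells of both libraries. There it was at 667 CPM (635 to 701) in WT against 962 CPM (930 to 996) in N-LKO, for a log2 ratio of 0.53 (0.44 to 0.62). Hepatocyte-like cells held 24.5 CPM (22.2 to 27.0) and 84.0 CPM (78.0 to 90.3), a log2 ratio of 1.78 (1.60 to 1.96), below background values of 40.5 CPM and 128 CPM. Fabp5 encodes the epidermal FABP (ENSMUSG00000027533, chr3:10012548-10016607, plus strand, 4 exons), and its first class was not the same in the libraries. In WT endothelial-like cells led at 203 CPM (185 to 222), and Kupffer-like cells followed at 157 CPM (142 to 174). In N-LKO Kupffer-like cells led at 376 CPM (360 to 392), ahead of endothelial-like cells at 250 CPM. Hepatocyte-like cells held the lowest WT level, 18.2 CPM (16.2 to 20.4), and 37.1 CPM (33.1 to 41.3) in N-LKO, again below the background of 30.01 CPM and 57.1 CPM. No 31-base stretch was shared between the transcripts of any 2 members, and 1.64% of those of Fabp5 were shared with the pseudogene Fabp5l2.

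**Figure D1:**
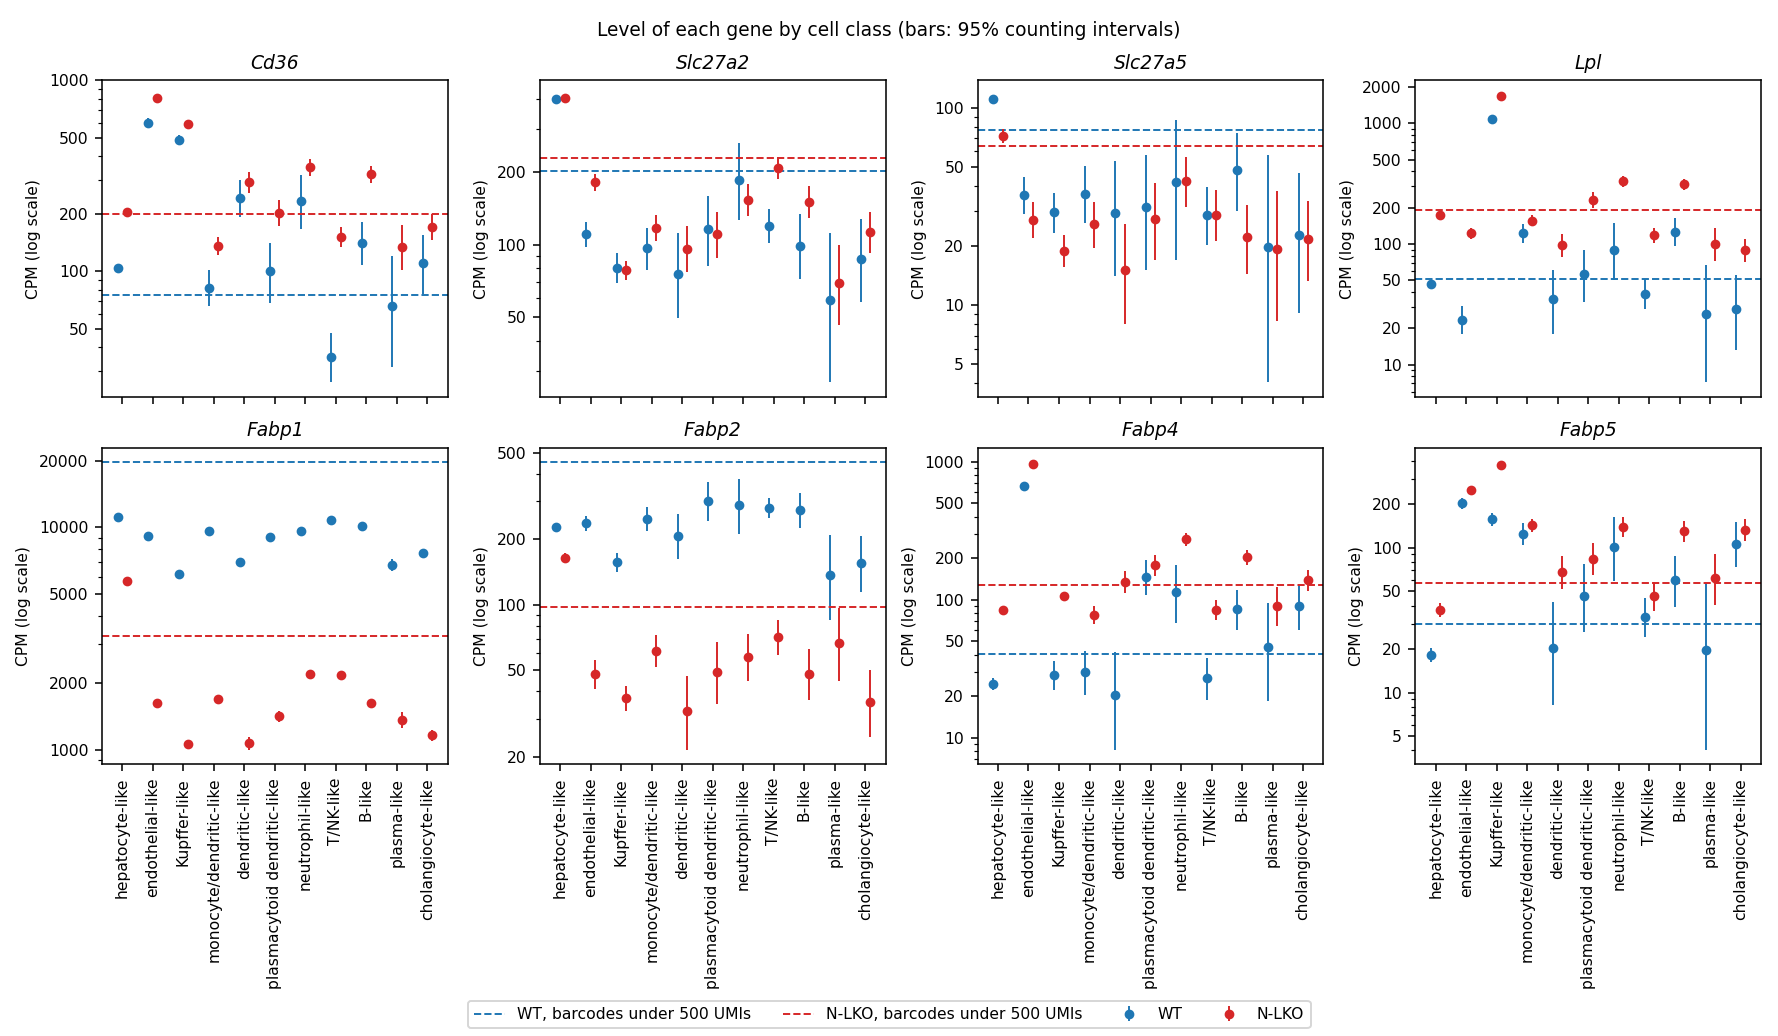
Level of each of the 8 genes in CPM (log axis) in the 11 cell classes, with 1 panel per gene and 1 point per library, bars for the 95% counting interval and dashed lines for the level in that library's barcodes under 500 UMIs. Slc27a2 and Slc27a5 rise above the dashed lines in hepatocyte-like cells alone, Lpl peaks in Kupffer-like cells (1083 CPM in WT, 1693 CPM in N-LKO), and Fabp4 in endothelial-like cells (667 and 962 CPM).

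In hepatocyte-like cells 3 members (Lpl, Fabp4 and Fabp5) were at least 2-fold higher in N-LKO, where 22.3% of the 10639 genes with at least 5 CPM in 1 library were. None of the members was at least 2-fold lower, against 2.42% of these genes. The members' median log2 ratio was 0.49 and that of all these genes 0.40. Set against the median gene of the class, 2 members (Lpl at 1.49 and Fabp4 at 1.38) were at least 2-fold higher, against 11.1% of genes, and 2 (Fabp1 at -1.34 and Slc27a5 at -1.03) were at least 2-fold lower, against 6.83%. For Lpl, Fabp4 and Fabp5 the hepatocyte-like levels were at or below the background of their own library, so they were not above what barcodes under 500 UMIs held. After the estimated free RNA was subtracted, unequally between the libraries, Lpl was still at least 2-fold higher. Fabp4 and Fabp5 then had no ratio. The part of free RNA in the levels was not tested beyond this estimate. In the background itself 3 members were at least 2-fold higher (18.6% of its genes) and 2 at least 2-fold lower (16.8%).

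**Figure D2:**
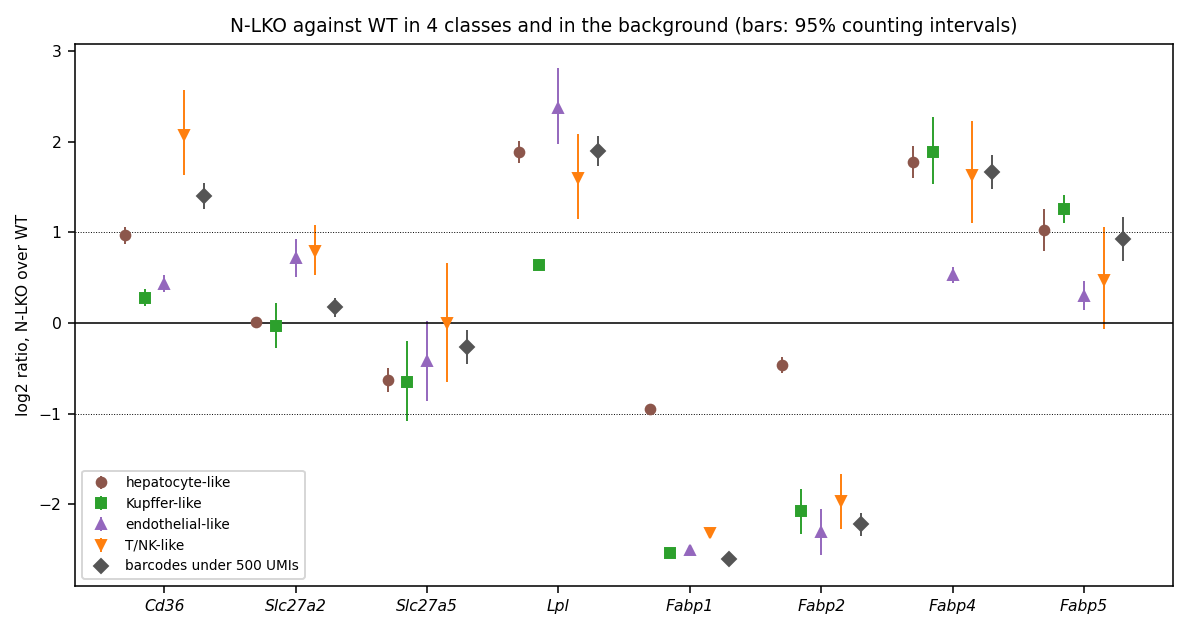
Log2 ratio of N-LKO over WT for the 8 genes in hepatocyte-like, Kupffer-like, endothelial-like and T/NK-like cells and in barcodes under 500 UMIs, with 95% counting intervals. Lpl in hepatocyte-like cells (1.88) lies with the background (1.90), Fabp1 in hepatocyte-like cells (-0.95) lies above the background (-2.60), and Lpl in Kupffer-like cells (0.64) lies below it.

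The classes other than hepatocyte-like cells followed the background for Fabp1. In T/NK-like cells, which should lack the gene, Fabp1 was at 10850 CPM in WT against 2173 CPM in N-LKO, 55.1% and 66.9% of the background. The hepatocyte marker list stood at 51.3% and 54.9% of its own background there. Over the 10 other classes the Fabp1 percentage divided by that of the hepatocyte list ran from 0.768 to 1.08 in WT and from 0.834 to 1.22 in N-LKO. For Slc27a5 this quotient ran from 0.626 to 1.30 and from 0.747 to 1.19. For Fabp5 it ran from 1.91 to 15.4 and from 1.49 to 20.6, so the Fabp5 values lay above the scale of the hepatocyte genes in every class. In WT dendritic-like cells (7 Fabp5 UMIs) and plasma-like cells (3 UMIs) the counting interval reached below that scale. Within the hepatocyte-like class Fabp1 was 510 UMIs per 1000 of albumin (Alb) in WT and 544 in N-LKO, whereas the background held 1601 and 372. In the other classes the range was 1132 to 1744 in WT and 330 to 510 in N-LKO, around the background of each library.

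**Figure D3:**
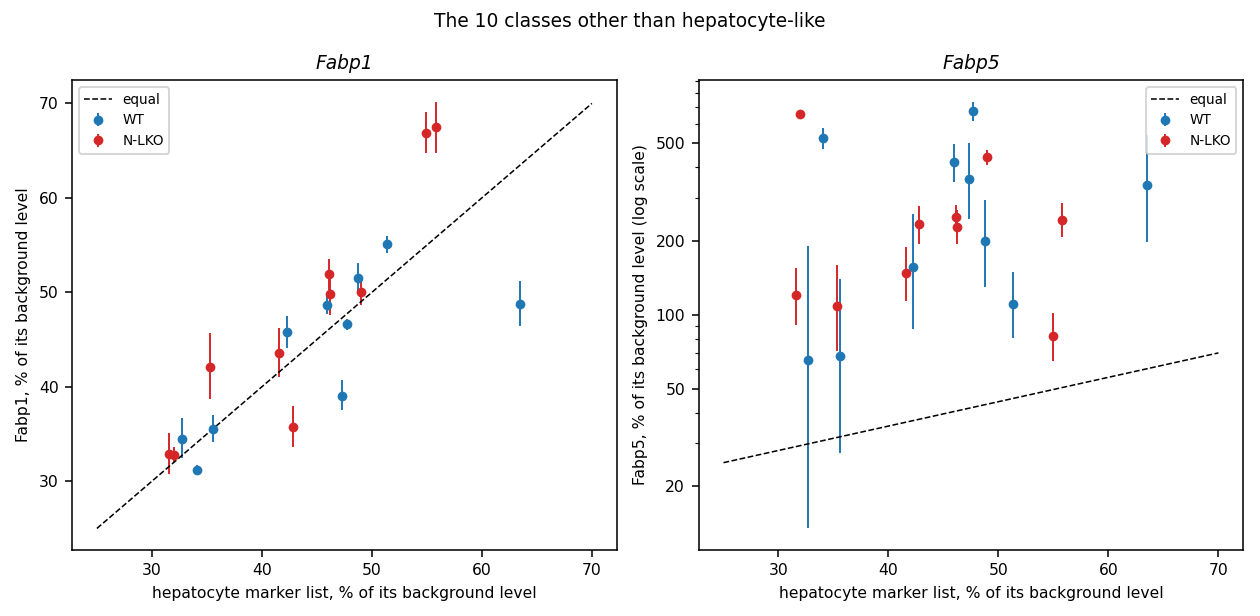
Level of Fabp1 (left) and Fabp5 (right, log axis) against the level of the hepatocyte marker list, both as percent of the level in that library's barcodes under 500 UMIs, in the 10 classes other than hepatocyte-like, with 95% counting intervals and a dashed line of equality. Fabp1 lies near the line in both libraries (quotients of 0.768 to 1.22). The Fabp5 points lie above it (1.49 to 20.6), with the intervals of WT dendritic-like and plasma-like cells reaching below it.

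The 5 hepatocyte-like clusters differed among themselves, most of all in Fabp1. Cluster 1 (8381 WT cells, led by Mup12, Slco1a1, Mup7, Mup1 and Gm12718) held Fabp1 at 9908 CPM. Cluster 10 (1155 WT cells, led by Mup7, Mup12, Mup1, Sult2a8 and 1810008I18Rik) held 25124 CPM and had the lowest Slc27a2, 156 CPM, of the 5. Cluster 19 (320 WT cells, led by Gm12718, Gm47818, Egfros, Gm15622 and Slco1a1) held 6131 CPM and the highest Slc27a2, 595 CPM. Malat1 was at 1514 CPM in cluster 10 and 35657 CPM in cluster 19. Among N-LKO cells, cluster 6 (1996 cells, led by Spink1, A2ml1, Hamp2, Dnajc12 and Serpina1e) held Fabp1 at 9648 CPM. Cluster 7 (2092 cells, with Tmem45b, Gm7967, Col4a3 and Rtl4 among its leading genes) held 1342 CPM, below the N-LKO background, with Malat1 at 19823 CPM. Its naming score was the lowest of the 5, 0.266 where at least 0.2 was required. Of the 9 hepatocyte markers, 4 were at least 2-fold above the median cluster there. Clusters 1 and 6 had all 9 so raised, cluster 19 had 8 and cluster 10 had 6.

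Cluster 7 also had less Slc27a5, 34.5 CPM against 104 CPM in cluster 6, and less Fabp2, 44.4 CPM against 268 CPM. Slc27a2 went the other way, at 473 CPM in cluster 7 and 339 CPM in cluster 6. Cd36 hardly differed between them, at 207.5 CPM and 201 CPM. The spread of Fabp1 between clusters 6 and 7 was thus wider than the difference between the 2 libraries over the whole class. A few cells allowed a comparison within a cluster. In cluster 1, Lpl was at 49.0 CPM in 8381 WT cells and 189 CPM in 81 N-LKO cells (27 UMIs), a log2 ratio of 1.97 (1.33 to 2.50). These levels lay near the background of each library, 50.9 and 190 CPM, with a log2 ratio of 1.90. In the same cluster Fabp1 was at 9908 CPM and 8676 CPM, a log2 ratio of -0.19. Fabp2 was higher in N-LKO there, with a log2 ratio of 0.63 (0.13 to 1.05). In cluster 6, with 98 WT and 1996 N-LKO cells, Fabp1 had a log2 ratio of -0.89, Fabp2 one of -0.42 and Cd36 one of -0.08 (-0.51 to 0.41).

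**Figure D4:**
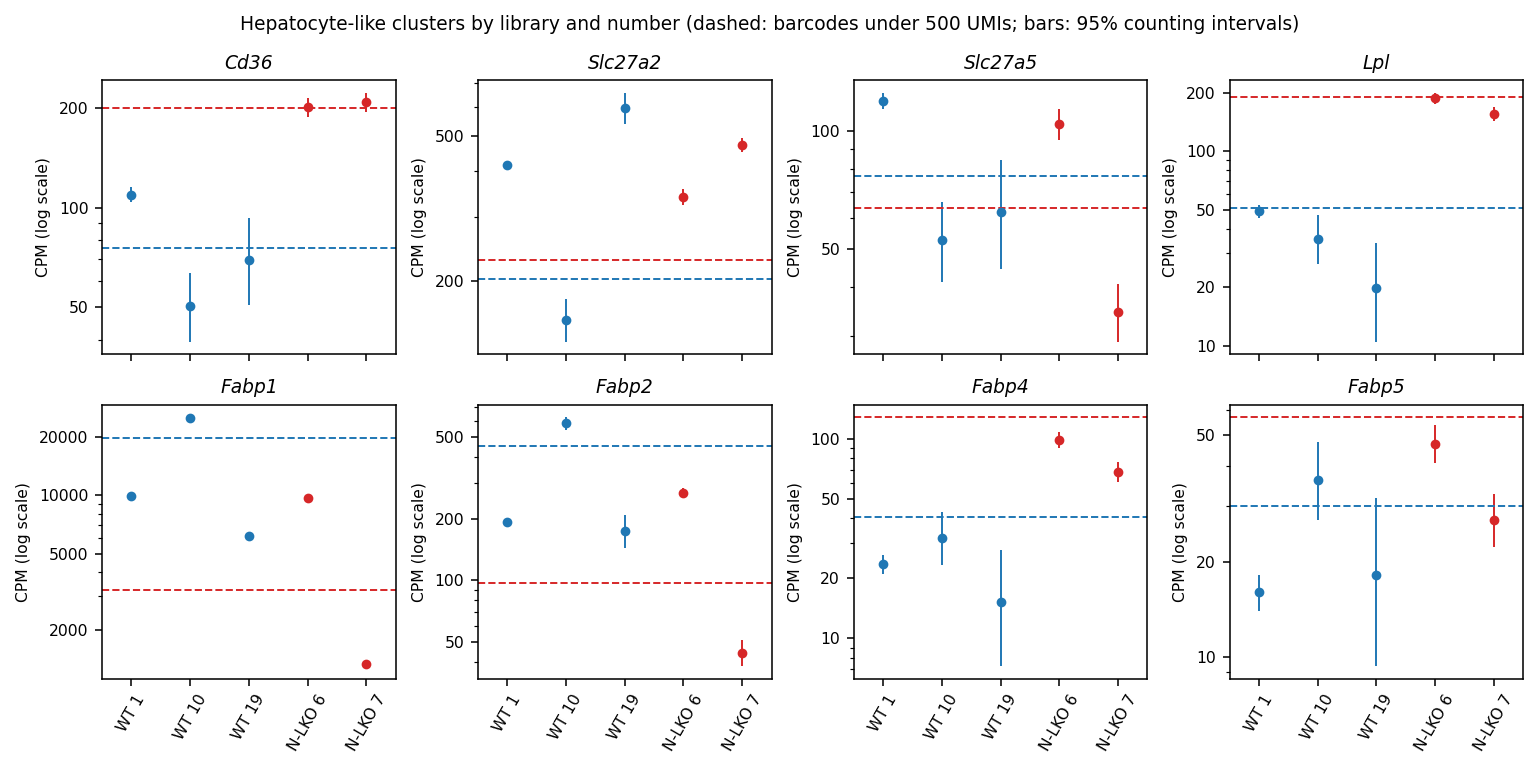
Level of the 8 genes in CPM (log axis) in the hepatocyte-like clusters of each library with over 50 cells that hold most of that library's class (clusters 1, 10 and 19 of WT, 6 and 7 of N-LKO), with 95% counting intervals and the background level dashed. Fabp1 spans 1342 CPM in N-LKO cluster 7 to 25124 CPM in WT cluster 10, whereas Cd36 is near 200 CPM (201 and 207.5) in both N-LKO clusters.

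Hepatocytes differ along the lobule, from the portal vein to the central vein. The hepatocyte-like cells of each library were ranked by their pericentral against periportal marker UMIs and cut into 3 equal parts. In WT, Cd36 climbed from 59.1 CPM in the periportal part to 108 CPM in the middle and 156 CPM in the pericentral part, a log2 ratio of 1.40 (1.22 to 1.58). Its periportal level was below the background of 75.4 CPM. Lpl was at 27.6, 52.5 and 64.5 CPM (log2 ratio 1.22, 0.957 to 1.496), around a background of 50.9 CPM, and the interval of the pericentral part (57.8 to 71.9 CPM) lay above it. The periportal cells were deeper, at a median of 1751 against 1416.5 UMIs, and the part of depth and free RNA in this order was not tested. Fabp1 was nearly level, at 10495, 10671 and 12378 CPM, a log2 ratio of 0.24. In N-LKO the steep gene was Fabp1, at 3921, 4509 and 9143 CPM, a log2 ratio of 1.22 (1.19 to 1.25).

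Fabp2 ran with Fabp1 in N-LKO, at 113, 137 and 250 CPM (log2 ratio 1.14, 0.96 to 1.33), whereas its WT log2 ratio was 0.36. The Cd36 order was shallower in N-LKO, at 182, 199.6 and 232 CPM, a log2 ratio of 0.35 (0.18 to 0.51), around a background of 199 CPM. Ranked by the pericentral genes alone, Cd36 had 0.18 (0.02 to 0.34) in N-LKO and 1.38 in WT. Slc27a2 differed little by zone, with log2 ratios of -0.18 in WT and -0.01 in N-LKO, and Slc27a5 had -0.21 and -0.49. Its direction in N-LKO depended on the ranking, since ranking the cells by the pericentral genes alone gave 0.22 (-0.06 to 0.50) there and -0.15 in WT. Within the largest cluster of each library, Fabp1 had a log2 ratio of 0.01 in WT cluster 1 and 1.31 in N-LKO cluster 6, where it went from 5999 CPM to 14926 CPM. Cd36 had 1.46 and 0.44, and by the pericentral genes alone 1.45 and 0.22 (-0.02 to 0.45). Whether the zone slopes differ between the genotypes cannot be tested with 1 library each.

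**Figure D5:**
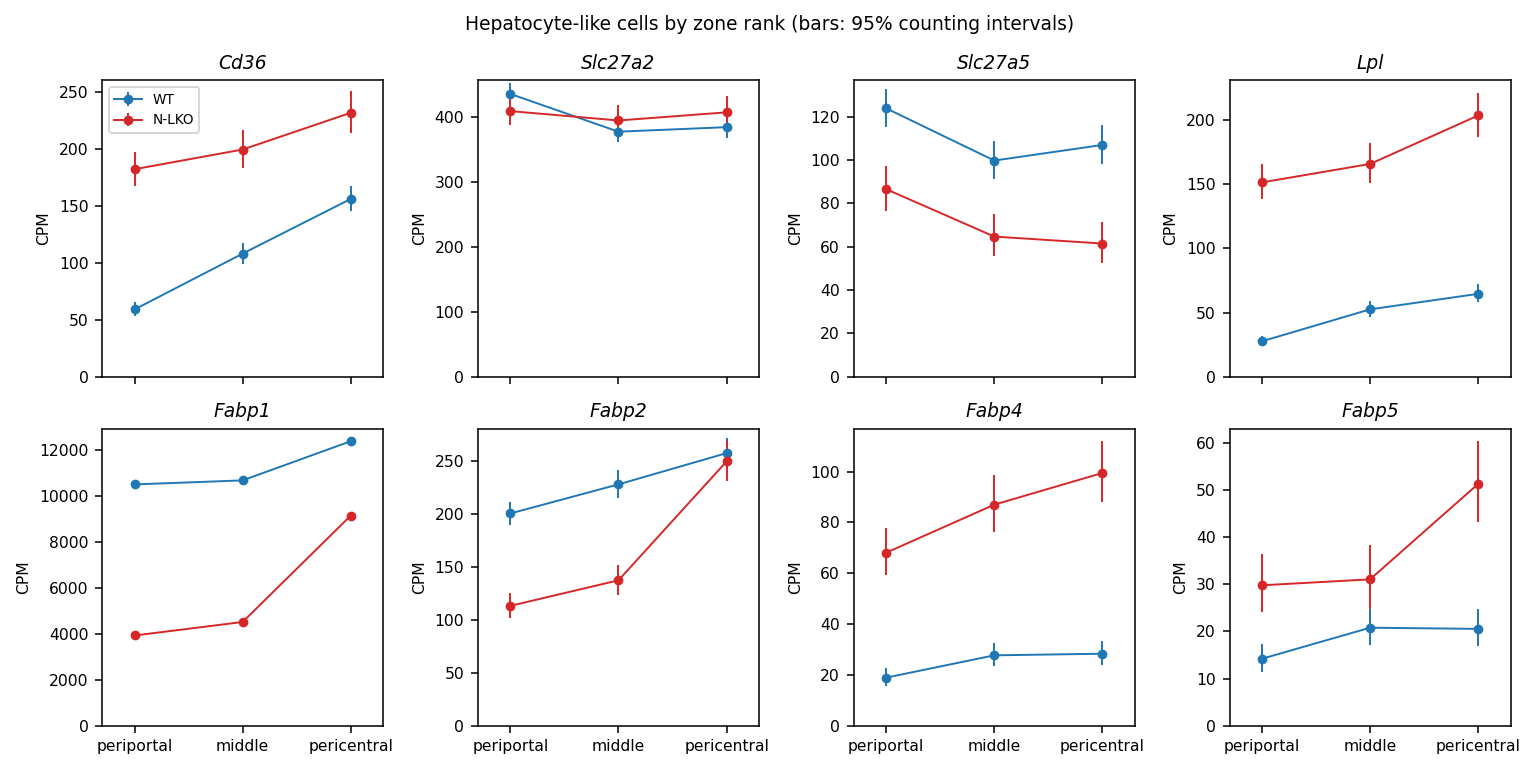
Level of the 8 genes in CPM (axis from 0) in the periportal, middle and pericentral parts of the hepatocyte-like cells of each library, with 95% counting intervals. Cd36 climbs from 59.1 to 156 CPM in WT, and Fabp1 from 3921 to 9143 CPM in N-LKO.

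Kupffer-like cells held the members of the macrophage. Lpl, Cd36 and Fabp5 were higher in N-LKO, with log2 ratios of 0.64 (0.58 to 0.71), 0.28 (0.19 to 0.38) and 1.25 (1.10 to 1.41). Of the 8 members, 2 (Fabp4 and Fabp5) were at least 2-fold higher, against 4.81% of genes in this class, and 2 (Fabp1 and Fabp2) at least 2-fold lower, against 6.35%. Fabp4 was at 28.6 CPM and 106 CPM, below the background of each library. The 6 markers of lipid-associated macrophages, among them Trem2 and Gpnmb, summed to 918 CPM in WT against 2409 CPM in N-LKO Kupffer-like cells, and to 52.8 and 217 CPM in T/NK-like cells. After thinning each cell to 1000 UMIs, 28.1% (26.0 to 30.4) of WT and 66.8% (65.2 to 68.3) of N-LKO Kupffer-like cells held a UMI of these markers, and 33.1% and 74.8% did without thinning. The T/NK-like shares were 5.20% and 18.0% thinned and 5.99% and 23.5% unthinned.

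Kupffer-like cells were also divided by whether they held such a UMI (a split made after values were seen). The cells with a UMI were deeper, at a median of 1490 against 1340.5 UMIs in WT and 1542 against 1361.5 UMIs in N-LKO, and the part of this in the values was not tested. In WT, Fabp5 was at 34.6 CPM in the 1108 cells without and 374 CPM in the 549 cells with a marker UMI, a 10.7-fold difference. Cd36 was at 349 and 733 CPM and Lpl at 873 and 1454 CPM. In N-LKO, Fabp5 was at 89.1 CPM in the 908 cells without and 460 CPM in the 2691 cells with a marker UMI (5.15-fold), Cd36 at 404 and 649 CPM, and Lpl at 964 and 1909 CPM. Fabp1 showed no such step, with 6351 and 5811 CPM in WT against 1123 and 1049 CPM in N-LKO.

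The shares of Kupffer-like cells with a UMI, thinned to 1000 UMIs, had the same order. They were 54.2% (51.8 to 56.6) in WT and 65.0% (63.4 to 66.5) in N-LKO for Lpl, 32.1% and 37.5% for Cd36, and 6.46% (5.32 to 7.75) and 18.6% (17.3 to 19.9) for Fabp5. Without thinning they were 64.9% and 75.8% for Lpl, 39.8% and 49.3% for Cd36, and 9.29% and 24.3% for Fabp5. The T/NK-like cells gave 3.63% and 11.3% for Lpl, 3.53% and 12.6% for Cd36 and 2.85% and 3.71% for Fabp5. Median depths were 1383 and 1495 UMIs in Kupffer-like and 1165 and 1234.5 UMIs in T/NK-like cells. In hepatocyte-like cells the Lpl share of 4.72% in WT and 14.5% in N-LKO lay near that of T/NK-like cells.

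Endothelial-like cells, which line the vessels and sinusoids, were the first class for Cd36 and Fabp4. Both were higher in N-LKO, Cd36 with a log2 ratio of 0.43 (0.34 to 0.53) and Fabp4 with 0.53 (0.44 to 0.62), and Fabp5 had 0.30 (0.14 to 0.46). Only Lpl, from 23.6 CPM to 122 CPM, was at least 2-fold higher, against 12.0% of genes, and it was below the background. Fabp1 and Fabp2 were at least 2-fold lower, against 7.38% of genes. Gpihbp1, which anchors the lipase to the capillary wall, was at 333 CPM in WT against 245 CPM in N-LKO, with 14.6 and 26.9 CPM in the background. The sinusoidal marker list summed to 3534 CPM and 2715 CPM and the vascular list to 427 CPM and 434 CPM.

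Endothelial-like cells with a UMI of the vascular list held more Fabp4 than those without, at 901 against 559 CPM in WT (1.61-fold) and 1092 against 879 CPM in N-LKO (1.24-fold). Cd36 did not follow this division, with 606 against 599 CPM in WT, and 811 against 810 CPM in N-LKO. The thinned share of endothelial-like cells with a Fabp4 UMI was 40.5% (38.2 to 42.7) in WT and 56.2% (54.2 to 58.2) in N-LKO, and 46.2% and 65.8% unthinned. The T/NK-like shares for Fabp4 were 2.45% and 6.91%. Among the UMIs of the 4 FABPs in endothelial-like cells, Fabp4 accounted for 6.48% in WT and 33.4% in N-LKO, while Fabp1 went from 9182.5 CPM to 1623 CPM.

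Cluster 9 held stellate together with endothelial markers (904 WT and 640 N-LKO cells) and was kept apart as mixed. Its Lpl level was 414 CPM (384 to 446) in WT against 400.3 CPM (364 to 439) in N-LKO, for a log2 ratio of -0.05, and these intervals overlapped. In this cluster 1 member (Slc27a2) was at least 2-fold higher, against 10.4% of genes, and 2 at least 2-fold lower, against 8.24%. Divided by whether a cell held an endothelial UMI, Lpl was at 420 CPM without and 413 CPM with one in WT, and 393 and 404 CPM in N-LKO. Fabp4 was at 25.7 and 352 CPM in WT against 97.5 and 399 CPM in N-LKO, so within the cluster Fabp4 went with endothelial UMIs and Lpl did not.

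The lymphoid and myeloid classes differed in how far Cd36, Lpl and Fabp4 moved, beside background log2 ratios of 1.40, 1.90 and 1.66. Monocyte/dendritic-like cells had 0.72 for Cd36 and 0.34 (0.05 to 0.65) for Lpl, dendritic-like cells 0.26 for Cd36, and plasmacytoid dendritic-like cells 0.27 for Fabp4. In T/NK-like cells Cd36 was at 35.7 CPM in WT against 151 CPM in N-LKO, for a log2 ratio of 2.07, and Lpl at 38.8 and 118 CPM, all below the background of their library. In that class 3 members were at least 2-fold higher, against 15.3% of genes, and 2 at least 2-fold lower, against 8.87%. Taking a class as above background where its lower interval bound was, neutrophil-like cells exceeded it in both libraries for Cd36 (233 and 351 CPM), Fabp4 (114 and 274 CPM) and Fabp5 (102 and 139 CPM). Their Lpl was above it in N-LKO at 330 CPM, and in WT the interval of 89.7 CPM (50.2 to 148) reached the background. In neutrophil-like cells 2 members were at least 2-fold higher (13.5% of genes) and 2 lower (21.7%). B-like cells exceeded it for Cd36 (141 and 322 CPM), Lpl (127 and 312 CPM), Fabp4 (85.3 and 204 CPM) and Fabp5 (59.9 and 130 CPM) in both libraries. In B-like cells 4 members were at least 2-fold higher, against 13.2% of genes, and 3 at least 2-fold lower, against 11.3%. Fabp1 and Fabp2 were the members at least 2-fold lower in each of the remaining 5 classes, where 9.26% of genes were so in monocyte/dendritic-like, 12.5% in cholangiocyte-like, 11.9% in dendritic-like, 13.6% in plasmacytoid dendritic-like and 23.9% in plasma-like cells. The members at least 2-fold higher were 1 in monocyte/dendritic-like cells (6.74% of genes), 1 in cholangiocyte-like (13.1%), 3 in dendritic-like (12.2%), 2 in plasmacytoid dendritic-like (13.4%) and 2 in plasma-like cells (17.8%). In cluster 8, which held Kupffer and endothelial markers, no member was at least 2-fold higher (5.70% of genes) and 2 were lower (7.76%), and Lpl was at 679 and 973 CPM, Cd36 at 540 and 755 CPM, and Fabp4 at 301 and 558 CPM.

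The other genes of fatty acid handling were taken from 5 lists and compared in hepatocyte-like cells, where 22.3% of all genes were at least 2-fold higher. Among 9 acyl-CoA synthetases and other transport proteins, 6 were expressed and 1 was at least 2-fold higher, Slc27a1 (FATP1), at 1.90 CPM in WT against 5.18 CPM in N-LKO, below the background values of 1.96 and 6.39 CPM. The list's most abundant members, the synthetases Acsl1 and Acsl5, were at 498 and 331 CPM and at 183 and 151 CPM. Of 14 other lipid-binding proteins, 6 were expressed, and the Golgi protein Acbd3 was at least 2-fold higher in N-LKO (35.6 and 73.2 CPM). Scp2 (sterol carrier protein) was at 4309 and 2389 CPM and Dbi (acyl-CoA-binding protein) at 3290 and 2831 CPM.

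Of 15 lipases, lipase regulators and lipoprotein receptors, 14 were expressed, and 2 were at least 2-fold higher, a smaller share than that of all genes. These were the lipase inhibitor Angptl4 (16.2 and 45.0 CPM) and the HDL receptor Scarb1 (45.9 and 112 CPM). The lipase inhibitor Apoc3 was at 4865 and 3991 CPM and its activator Apoc2 at 1072 and 1301 CPM. Of 9 membrane and caveolar proteins, 7 were expressed; the caveolar coat protein Cav1 was at 1.67 and 8.98 CPM and Got2, the mitochondrial aspartate transaminase also described as a membrane fatty acid-binding protein, was 2-fold lower at 310 and 154 CPM. Against a median log2 ratio of 0.40 over all genes of the class, the list medians were -0.16 for synthetases, -0.03 for lipid-binding proteins, -0.18 for lipases and -0.23 for membrane proteins.

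The list of 9 transcription factors had a median of 0.44. Ppara, the receptor through which fatty acids raise Fabp1 and oxidation genes, was at 253 CPM in WT against 692 CPM in N-LKO, for a log2 ratio of 1.45 (1.40 to 1.51), with 153 and 267 CPM in the background. Pparg, which in other tissues controls Cd36, Lpl and Fabp4, was at 21.5 and 90.4 CPM, a log2 ratio of 2.07 (1.89 to 2.26), against 14.5 and 37.9 CPM in the background. Cebpa was at 94.7 and 45.0 CPM, a log2 ratio of -1.07 (-1.24 to -0.91), and Hnf4a at 156 and 212 CPM. Both Ppara and Pparg stood above the background in each library, where Lpl and Fabp4 were at or below it.

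The genes whose pattern was most like each member were found over 16 sums, those of the 8 classes with at least 200 cells in each library, among 12016 genes. Since the sums share libraries and free RNA, the correlations are a description. Fabp1 was closest to Phyh (r = 0.996), Gnmt and Acaa1b, and Fabp2 to Ttc36 (0.993), Ddt and Fabp1 itself. Slc27a2 was closest to Cyp2c70 (0.979), Serpinc1 and Marc2, and Slc27a5 to Alb (0.96), Asgr1 and Serpina3k. Lpl was closest to Gpnmb (0.97), Mmp12 and Mitf, and Fabp5 to Slc43a2 (0.94), Msr1 and Nras. Fabp4 was closest to Col4a1 (0.98), Lyve1 and Shank3, and Cd36 to Zfhx3 (0.936), 2510009E07Rik and Snx13.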

How the data were processed

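Single-cell 3′ RNA libraries (10x Genomics v3) from 1 WT and 1 N-LKO liver preparation were analysed as deposited. The authors deposited raw UMI counts per gene and barcode, made with Cell Ranger (7.1.0 per the file headers); the submitters' processing notes also name Seurat and the build mm9. Gene positions came from GENCODE vM21 on GRCm38, matched by gene ID, and promoters from RefSeq on GRCm38.p6, which held 4 of the 8 members. The build of the labels differs from these, so no deposited coordinate was used.

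Barcodes with at least 1000 UMIs, at least 400 genes and at most 30% mitochondrial UMIs were taken (20158 WT and 22214 N-LKO). Those with a Scrublet doublet score above 0.25, 8.55% and 10.6%, were removed. Both libraries were clustered together with scanpy 1.11.5 (2000 variable genes, 30 components, 20 neighbors, Leiden resolution 0.3), leaving out of the variable genes the 5 members among them. The 23 clusters were named from marker lists, and 5 with markers of several cell types were kept as mixed; erythroid-like cells, under 50 in WT, were not compared. UMIs were summed per class and library and given as CPM. Levels carry exact Poisson intervals, ratios conditional binomial intervals and shares Clopper-Pearson intervals, all at 95% and for counting error only, since UMIs of 1 library are not replicates. Genes with at least 5 CPM in 1 library were compared; ratios took a pseudocount of 0.5 UMIs, and a gene was counted as higher or lower from a 2-fold ratio. To compare shares of cells, each cell was thinned to 1000 UMIs. The share of free RNA in a class was estimated from markers of other cell types, with the hepatocyte list for the classes other than hepatocyte-like, a choice made after seeing the data, as were the splits by marker UMIs. For hepatocyte-like cells the lowest of the Kupffer, endothelial and stellate lists was taken. This was 67.3% of background in WT (Kupffer) and 32.1% in N-LKO (stellate), so the libraries were subtracted unequally. The other lists gave 83.8% and 103% in WT and 43.6% and 36.9% in N-LKO. For Fabp1, Fabp2, Fabp4 and Fabp5 the WT amount to subtract exceeded the hepatocyte-like level, so they had no ratio after it. The ratio step was tested on simulated data with known changes.

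The members, the lists and the comparisons were chosen with earlier results of these data known. Genes named were the 8 members, list genes at least 2-fold apart in hepatocyte-like cells with at least 5 CPM in 1 library or the 2 most abundant of a list, the 3 genes most correlated with each member, and the 5 leading genes of each hepatocyte-like cluster; some genes that met this rule are not reported here. Versions were numpy 2.4.6, scipy 1.17.1, pandas 2.3.3 and leidenalg 0.10.2.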

Additional observations from a re-analysis of the deposited data

How the results depend on the processing

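No paired analysis was possible because each group had 1 library. The members' median log2 ratio in hepatocyte-like cells, 0.49, lay between 0.09 and 0.66 under the alternatives other than subtraction of free RNA, where it was -0.20 over the 4 members that then had a value; the subtraction leaves 34 values in all classes without a ratio. After that subtraction 1 member (Lpl) was at least 2-fold higher and 1 (Slc27a5 at -1.27) at least 2-fold lower, where 3 and 0 had been. The count of members at least 2-fold higher was 4 with a UMI minimum of 500 or 2000 or no doublet removal, and 2 relative to the median gene, with each cell weighted equally or with CPM over non-mitochondrial UMIs. The count at least 2-fold lower was 1 with a UMI minimum of 500 or 2000, no mitochondrial limit, no doublet removal, each cell weighted equally, or CPM over non-mitochondrial UMIs, and 2 with a mitochondrial limit of 10% or relative to the median gene. Shares of all genes so called are given only for the main setting (22.3% and 2.42%) and relative to the median gene (11.1% and 6.83%). The other counts thus have no gene-wide share beside them. The median log2 ratio over all genes, 0.40 in the main setting, also moved. It was 0.07 without clusters 7, 10 and 19 and 0.51 with no filter on low genes. Fabp2 in Kupffer-like cells turned to 1.5 after subtraction. There the WT level of 157 CPM was almost all removed, since 34.1% of a background of 454 CPM was subtracted. That ratio thus rests on a small remainder. Fabp5 in dendritic-like cells turned to -0.29 with a UMI minimum of 2000 and to -0.060 with a resolution of 0.6. Leaving out clusters 7, 10 and 19, chosen by Malat1, turned Fabp2 in hepatocyte-like cells to 0.46. The causes were not tested. Of 806 log2 ratios by gene, class and alternative, 657 moved less than their counting interval and 146 more. In Kupffer-like cells Lpl stayed between 0.52 and 0.72 and Fabp5 between 1.11 and 1.58, and in endothelial-like cells Fabp4 stayed between 0.39 and 0.80. A UMI minimum of 2000 left 2 of the 11 classes with values and a mitochondrial limit of 10% left 6. Per cell, members at low levels were seen in few cells, and thinned shares of cells with a Fabp5 UMI ran as low as 1.80%.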
